A study of Mus musculus with 6 samples.

Results

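The genes described here are 10 members of the mouse Serpina subfamily of serpins, Serpina1a, Serpina1b, Serpina1c, Serpina1d, Serpina1e, Serpina3k, Serpina3m, Serpina3n, Serpina6 and Serpina10, taken by name from the 25184 genes of the deposited count table. Poly(A) RNA of primary hepatocytes was sequenced with strand information from 3 control mice (Sucnr1 fl/fl) and 3 knockout mice (Hep-Sucnr1 KO), after enzymatic digestion of the livers of chow-fed animals, a density gradient and a night in culture. All 6 mice carried floxed Sucnr1, which encodes a cell surface receptor for succinate, and the knockout mice also carried Alb-Cre, a Cre recombinase driven by the albumin promoter, so that deletion was limited to albumin-expressing cells. The controls carried no Cre, and an effect of Cre itself cannot be told apart from that of the deletion. The age and sex of the mice behind these libraries are not given in the sources used here. RNA was extracted on 2 days: Sucnr1 fl/fl replicate 1 and Hep-Sucnr1 KO replicate 3 on day 1, and Sucnr1 fl/fl replicates 2 and 3 and Hep-Sucnr1 KO replicates 4 and 5 on day 2. Below, values of single libraries are listed in the order of replicates 1, 2 and 3 for the control libraries and of replicates 3, 4 and 5 for the KO libraries.

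Serpins are secreted or intracellular proteins that mostly trap serine proteases: the protease cleaves an exposed reactive centre loop, the serpin changes shape, and both stay covalently joined. Hepatocytes secrete Serpina1, or alpha-1-antitrypsin. In humans it inhibits neutrophil elastase and is among the most abundant plasma proteins. The single human gene corresponds to several near-identical copies in the mouse, and human SERPINA1 deficiency leads to lung and liver disease. Which proteases each mouse copy inhibits was not tested here. Serpina3k, Serpina3m and Serpina3n belong to a mouse expansion of alpha-1-antichymotrypsin, an acute phase protein, and Serpina3n inhibits granzyme B. Serpina10 is the protein Z-dependent inhibitor of coagulation factor Xa. Serpina6 is corticosteroid-binding globulin, a serpin that carries glucocorticoids in plasma and does not work as a protease inhibitor.

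The count table lists the members as ENSMUSG00000066366 (Serpina1a), ENSMUSG00000071178 (Serpina1b), ENSMUSG00000079015 (Serpina1c), ENSMUSG00000071177 (Serpina1d), ENSMUSG00000072849 (Serpina1e), ENSMUSG00000058207 (Serpina3k), ENSMUSG00000079012 (Serpina3m), ENSMUSG00000021091 (Serpina3n), ENSMUSG00000060807 (Serpina6) and ENSMUSG00000061947 (Serpina10). All 10 genes lie on chromosome 12 (GRCm38). Serpina10 (103614786-103631444), Serpina6 (103646630-103657212) and the 5 Serpina1 copies, from Serpina1b (103728156-103830373) through Serpina1d (103763594-103773592), Serpina1a (103853589-103863562) and Serpina1c (103894926-103904887) to Serpina1e (103946931-103958975), are on the minus strand. Serpina3k (104338486-104346144), Serpina3m (104338486-104394257) and Serpina3n (104406729-104414329) follow on the plus strand. The annotated span of Serpina1b runs past Serpina1d because of distant alternative exons, and the annotation gives Serpina3k and Serpina3m the same first position and 60 exonic bases in common.

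The coding sequences of Serpina1a to Serpina1e were each 1239 bases long, and any pair was 96.3% to 98.5% identical, with Serpina1a and Serpina1c the closest. The differences were dense in the stretch that encodes the reactive centre loop, the part of the protein that a protease cleaves. These 66 bases, positions 1087 to 1152 of the coding sequence, lie in exon 5 of 5 in each copy (GRCm38, minus strand; Serpina1a chr12:103853765-103853830, Serpina1b chr12:103728332-103728397, Serpina1c chr12:103895102-103895167, Serpina1d chr12:103763770-103763835, Serpina1e chr12:103947108-103947173). They are shown because they tell the 5 copies apart, 5′ to 3′, with the bases that differ from Serpina1a in capitals:
Serpina1a: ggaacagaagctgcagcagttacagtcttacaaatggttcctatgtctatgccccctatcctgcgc
Serpina1b: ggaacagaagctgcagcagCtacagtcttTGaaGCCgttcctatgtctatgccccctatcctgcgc
Serpina1c: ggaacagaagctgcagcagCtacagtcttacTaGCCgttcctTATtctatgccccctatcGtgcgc
Serpina1d: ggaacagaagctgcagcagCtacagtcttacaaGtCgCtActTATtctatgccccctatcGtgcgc
Serpina1e: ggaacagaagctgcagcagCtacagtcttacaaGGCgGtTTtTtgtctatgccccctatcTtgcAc
Of the 37 coding bases by which Serpina1b differed from Serpina1a, 6 lay in this stretch. The count was 9 of 19 for Serpina1c, 9 of 42 for Serpina1d and 10 of 43 for Serpina1e. The 3 Serpina3 genes were less alike, with coding identities of 90.9% for Serpina3k and Serpina3m, 85.2% for Serpina3m and Serpina3n and 82.2% for Serpina3k and Serpina3n. Their loop stretches, also in exon 5 of 5, were 69 bases long in Serpina3k and 75 bases in Serpina3m and Serpina3n and are shown without capitals (plus strand; Serpina3k chr12:104345269-104345337, Serpina3m chr12:104393769-104393843, Serpina3n chr12:104413448-104413522):
Serpina3k: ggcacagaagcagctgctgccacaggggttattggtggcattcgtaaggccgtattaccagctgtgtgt
Serpina3m: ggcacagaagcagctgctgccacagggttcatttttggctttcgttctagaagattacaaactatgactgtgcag
Serpina3n: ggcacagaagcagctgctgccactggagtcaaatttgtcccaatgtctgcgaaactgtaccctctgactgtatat
All 3 opened with the same bases and parted after them.

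Near-identical copies share reads, and this set what each Serpina1 value means. Of the 100-base windows of the principal transcript, only 39.0% in Serpina1a and 41.5% in Serpina1c were found in no other gene. The share was 73.6% in Serpina1b, 70.7% in Serpina1d, 81.8% in Serpina1e, 93.9% in Serpina3m, 95.1% in Serpina3k and 99.8% in Serpina3n, and every window of Serpina6 and Serpina10 was unique. The longest run of shared windows spanned 761 bases in Serpina1a and in Serpina1c, against 233 bases in Serpina1e. The deposited table gives equal or nearly equal counts to most pairs of genes with identical transcripts. Compared were 52 such pairs that averaged at least 20 counts a gene over all libraries. Of these, 18 had the same count in all 6 libraries, and 36 had a ratio of the lower to the higher count above 0.9. The median ratio was 0.972 and the lowest 0.023, in a pair with 7 counts for 1 gene and 311 for the other. The 18 pairs had 20 to 67 counts a gene, and their equal counts are what counting shared read pairs for each gene would give. Many pairs have genes in common, among the equal ones the Rps12 pseudogenes and Amy2a2, Amy2a3 and Amy2a4, so the pairs are not independent. Counts that are only close would also follow from a random split of shared read pairs, so the way of counting was not settled. If shared read pairs were counted for each gene, the sum of the 5 Serpina1 rows counts some of them more than once.

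**Figure D1:**
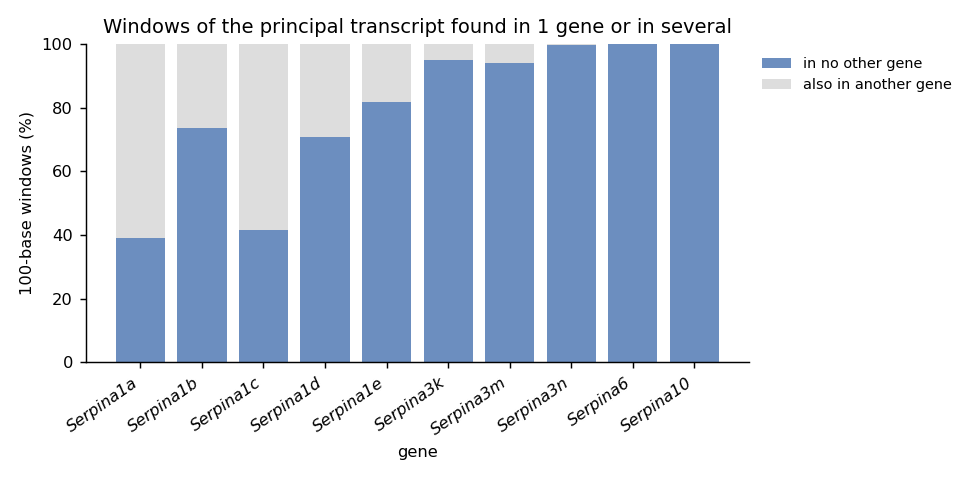
Each bar is the principal transcript of 1 gene cut into 100-base windows, with the percentage found in no other gene in blue and the percentage also found in another gene in grey. Serpina1a (39.0% unique) and Serpina1c (41.5%) share most of their windows, whereas Serpina3n, Serpina6 and Serpina10 share almost none.

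The libraries held 30504248 to 38770694 counts, and the members had from 2273 counts (Serpina6, lowest library) to 444053 (Serpina1c, highest library), so the spread between mice set the precision and not counting. All 10 members were among the 15105 genes that passed the filter on low counts. Levels are given as CPM, counts relative to the library total scaled with edgeR's TMM factors. Hepatocyte markers (Alb, Apoa1, Ttr, Cps1, Hnf4a, Cyp2e1) summed to 50334 to 81126 CPM, and those of neutrophils, which carry elastase (S100a8, S100a9, Ly6g, Retnlg, Mpo), to 0.286 to 2.80 CPM, with Ly6g at 0 in 5 of 6 libraries. The Y-linked genes Kdm5d, Eif2s3y, Uty and Ddx3y summed to 96.0 to 115 CPM, so that all 6 libraries held RNA of males. Sucnr1 stood at 6.71, 3.55 and 3.40 CPM in the control libraries and at 2.66, 0.827 and 0.152 CPM in the KO libraries. Every KO library was below every control library in Sucnr1, with a log2 fold change of −2.23 (SE 0.54) and an adjusted p of 0.998 in edgeR, whereas DESeq2 called it (−2.31, adjusted p = 0.0328).

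Serpina transcripts were abundant in both genotypes. CPM per kilobase of exon takes gene length into account, but not read pairs shared between genes. On this scale the row of Serpina1c stood highest (8009 ± 787, SD, n = 6 libraries). It was followed by Serpina1e (6852 ± 829), Serpina1a (5236 ± 434), Serpina3k (4157 ± 434), Serpina1d (4153 ± 341) and Serpina1b (2949 ± 246). Serpina3k and Serpina1d could not be ordered, since Serpina3k was the higher in 3 of 6 libraries, and Serpina1c exceeded Serpina1e in 5 of 6. Serpina3n followed at 429 ± 92.9, then Serpina3m at 130 ± 25.6, Serpina10 at 81.5 ± 8.0 and Serpina6 at 57.6 ± 10.8, and in this order each gene was above the next in all 6 libraries. If shared read pairs were counted for each gene, rows with few unique windows are raised the most. The unique share was 41.5% in Serpina1c and 39.0% in Serpina1a, against 81.8% in Serpina1e and 95.1% in Serpina3k. The order and ratios of these rows are therefore not an order of transcript levels. The order among the Serpina1 copies and Serpina3k also depends on the length used. Over the principal transcripts Serpina1e stood highest (8555 ± 1035), above Serpina1c (8009 ± 787) in 4 of 6 libraries, and by mean CPM alone Serpina1e (11079) was also above Serpina1c (10901). Serpina1b over the principal transcripts (5109 ± 426) was above Serpina3k (4157 ± 434) in all 6 libraries, and Serpina10 was above Serpina6 in 5 of 6. The ratio of Serpina1c to Serpina1b was 2.72 over all annotated exons and 1.57 over the principal transcripts. By mean CPM the least abundant member, Serpina6, stood above 91.9% of the genes tested.

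**Figure D2:**
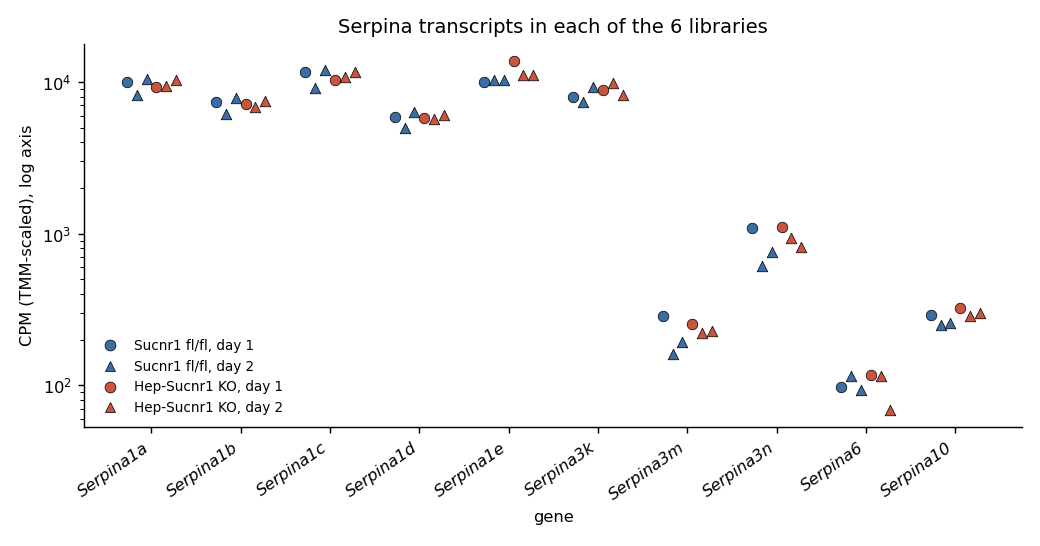
Points give CPM on a log axis for each gene in each library, with Sucnr1 fl/fl in blue and Hep-Sucnr1 KO in red, circles for extraction day 1 and triangles for day 2. The Serpina1 copies and Serpina3k lie between 4951 and 13643 CPM, Serpina3n between 614 and 1104, and in Serpina3m and Serpina3n both circles lie above all triangles.

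Loss of Sucnr1 in hepatocytes left no Serpina member past the test. In the comparison of genotypes, edgeR's quasi-likelihood test with extraction day as covariate called 0 of the 10 members at an adjusted p below 0.05, and 0% of the 15105 genes tested (DESeq2 called 7 genes, Sucnr1 among them and no member). At an unadjusted p below 0.05 there were 0 members and 563 genes, 3.73%. Of the 10 log2 fold changes, 8 were above 0, against 50.5% of all genes, and their median was 0.07 against 0.003 over all genes. The 8 include Serpina1a at 0.01 and Serpina1b and Serpina1d at 0.02, rows that share reads and changed sign under some alternatives. The adjusted p of each member was between 0.998 and 0.999 in edgeR, and between 0.939 and 1 over the alternatives.

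Serpina1a, the copy after which the others were compared, stood at 10042, 8252 and 10378 CPM in the control libraries and at 9247, 9412 and 10220 CPM in the KO libraries. The genotypes overlapped, and the lowest library was Sucnr1 fl/fl replicate 2. The log2 fold change of Serpina1a was 0.01 (SE 0.18), with a 95% interval from −0.42 to 0.45. Serpina1c, its closest copy, had 11550, 9130 and 12043 CPM in the control and 10298, 10777 and 11608 CPM in the KO libraries. Sucnr1 fl/fl replicate 2 was again the lowest and the groups overlapped, with a log2 fold change of −0.002 (SE 0.19). Serpina1b ranged from 6108 to 7797 CPM and Serpina1d from 4951 to 6378 CPM, and in both the lowest and the highest library were Sucnr1 fl/fl replicates 2 and 3. Their log2 fold changes were 0.02 (SE 0.18) for Serpina1b and 0.02 (SE 0.17) for Serpina1d.

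Serpina1e differed from the other copies in its pattern. It stood at 9995, 10237 and 10354 CPM in the control libraries and at 13643, 11098 and 11148 CPM in the KO libraries. Every KO library was above every control library, and Hep-Sucnr1 KO replicate 3 was the highest. Serpina1e was the 1 member whose genotypes did not overlap in this direction, as was the case for 6.54% of all genes, and 0 members did so in the other direction (4.04%). The log2 fold change was 0.22 (SE 0.18, 95% interval −0.19 to 0.64, which includes 0), with an adjusted p of 0.998 in edgeR. On day 1, with 1 library a genotype, it was 0.45, and on day 2 it was 0.11. Without Hep-Sucnr1 KO replicate 3 the fitted value was 0.10, and without Sucnr1 fl/fl replicate 1 it was 0.11.

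Relative to Serpina1a, the other copies kept nearly fixed proportions, with Serpina1e as the exception. The ratio of Serpina1b to Serpina1a lay between 0.729 and 0.769 in the 6 libraries (coefficient of variation 2.04%), that of Serpina1c between 1.11 and 1.16 (1.87%) and that of Serpina1d between 0.588 and 0.628 (2.54%). The ratio of Serpina1e to Serpina1a ran from 0.995 in Sucnr1 fl/fl replicate 1 to 1.48 in Hep-Sucnr1 KO replicate 3 (15.6%). Serpina1e is also the copy that shares the fewest windows with the others, and the part of shared read pairs in these ratios was not tested. Over the 6 libraries, Pearson's r of log2 CPM was 0.995 for Serpina1a and Serpina1c, 0.990 for Serpina1b and Serpina1d and −0.11 for Serpina1a and Serpina1e, as a description of rows that share reads. The pseudogene Gm8893 (ENSMUSG00000090555), which lies within the annotated span of Serpina1b and has 24.0% of its windows in the members, stood at 628 to 842 CPM.

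**Figure D3:**
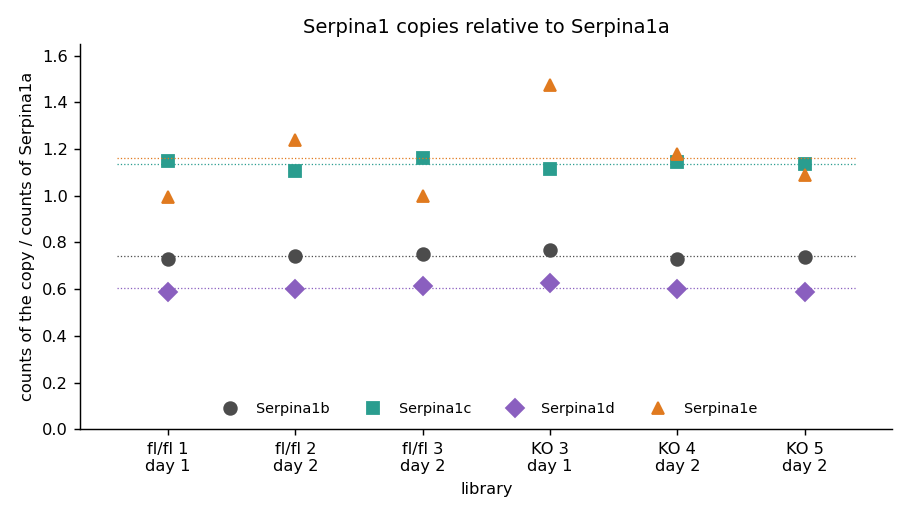
Points give the counts of Serpina1b, Serpina1c, Serpina1d and Serpina1e divided by those of Serpina1a in each library, and dotted lines give the mean over the 6 libraries. Serpina1b, Serpina1c and Serpina1d stay close to their lines, whereas Serpina1e runs from 0.995 to 1.48.

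The mRNA of the whole Serpina1 family lies between 2 numbers if read pairs were counted for each copy they match. The largest single row gives the lower bound, 1.10% to 1.39% of the counts of a library, and the sum of the 5 rows the upper bound, 4.22% to 4.71%. With the 5 rows replaced by their sum, the genotypes differed by 0.07 on the log2 scale, with an adjusted p of 0.998 in edgeR. Serpina1e made up 22.3%, 26.5% and 22.1% of this sum in the control libraries and 29.6%, 25.3% and 24.0% in the KO libraries, so that the genotypes overlapped.

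Of the alpha-1-antichymotrypsin-like genes, Serpina3k had CPM within the range of the Serpina1 rows. It had 7956, 7365 and 9251 CPM in the control libraries and 8785, 9787 and 8162 CPM in the KO libraries, so that the genotypes overlapped. Its log2 fold change was 0.12 (SE 0.19, 95% interval −0.32 to 0.56). Serpina3n stood at 1084, 614 and 756 CPM in the control and at 1104, 937 and 822 CPM in the KO libraries. Sucnr1 fl/fl replicate 1 reached the level of the KO libraries and the groups overlapped. With all libraries Serpina3n had the largest genotype difference of the 10 members, a log2 fold change of 0.25 (SE 0.16, 95% interval −0.13 to 0.63), with an adjusted p of 0.998 in edgeR. This rank rested on single libraries: the value was 0.14 without Sucnr1 fl/fl replicate 2 and 0.16 without Hep-Sucnr1 KO replicate 4, below Serpina1e at 0.25 and 0.26, and it reached 0.36 without Sucnr1 fl/fl replicate 1. With no covariate it was 0.22, against 0.23 for Serpina1e. Serpina3m had 286, 161 and 192 CPM in the control and 253, 221 and 228 CPM in the KO libraries. The control libraries lay on both sides of the KO libraries, and the log2 fold change was 0.17 (SE 0.15), with 0.05 without Sucnr1 fl/fl replicate 2 and 0.35 without Sucnr1 fl/fl replicate 1.

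Within extraction day 2, both KO libraries were above both control libraries in Serpina3n and in Serpina3m, with log2 ratios of the means of 0.36 and 0.35. On day 1 the single pair gave 0.03 for Serpina3n and −0.18 for Serpina3m. The difference between days in the genotype effect, tested as an interaction in edgeR, had an adjusted p of 1.00 for both, and 0 of the 15105 genes passed this test (557 at an unadjusted p below 0.05).

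Serpina10, the factor Xa inhibitor, had 291, 249 and 257 CPM in the control libraries and 324, 287 and 301 CPM in the KO libraries. The KO libraries were higher with 1 overlap, since Hep-Sucnr1 KO replicate 4 lay just below Sucnr1 fl/fl replicate 1. Its log2 fold change was 0.20 (SE 0.11, 95% interval −0.07 to 0.46), the smallest error among the members, with 0.15 on day 1 and 0.22 on day 2. Serpina6, the glucocorticoid carrier, had 98.2, 116 and 92.8 CPM in the control and 118, 115 and 69.0 CPM in the KO libraries. Hep-Sucnr1 KO replicate 5 was the lowest of all, the genotypes overlapped, and the log2 fold change was −0.03 (SE 0.22).

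Serpina3m and Serpina3n separated by extraction day. Both day 1 libraries were above all 4 day 2 libraries: for Serpina3n 1084 and 1104 CPM against 614 to 937, and for Serpina3m 286 and 253 CPM against 161 to 228. In the same edgeR fit, the log2 fold change of day 2 against day 1 was −0.50 (SE 0.17) for Serpina3n, with an adjusted p of 0.549, and −0.44 (SE 0.16) for Serpina3m, with an adjusted p of 0.573. Neither passed the threshold, and of all genes 0% did (1132 genes, 7.49%, had an unadjusted p below 0.05, and DESeq2 called 225 genes and 0 members). Serpina3m and Serpina3n were the 2 members lower on day 2 without overlap, as were 6.29% of all genes, and also the 2 with an unadjusted p below 0.05, as were 2.33% of all genes in this direction. Without Sucnr1 fl/fl replicate 1 the fitted differences were −0.33 for Serpina3n and −0.17 for Serpina3m, and 0 members then had an unadjusted p below 0.05. Without Hep-Sucnr1 KO replicate 3 they were −0.70 for Serpina3n and −0.73 for Serpina3m. Serpina3m was also no longer below an unadjusted p of 0.05 without Sucnr1 fl/fl replicate 3, or with the index series of the libraries as a further term. On the other side, 0 members were higher on day 2 without overlap (8.51% of all genes), and 0 were higher at an unadjusted p below 0.05 (5.16%).

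The other 8 members did not separate by day. Their log2 fold changes of day 2 against day 1 lay between −0.17 (Serpina10, SE 0.12) and 0.05 (Serpina3k, SE 0.20), and 9 of the 10 members were below 0, against 46.7% of all genes. The median over the members was −0.08, against 0.02 over all genes. Over the 6 libraries, log2 CPM of Serpina3m and Serpina3n followed each other (Pearson's r = 0.947), and those of Serpina3n and Serpina10 did so less closely (r = 0.846), whereas Serpina3k did not follow Serpina3m (r = 0.18) in spite of the closer sequence. These are descriptions over libraries that share genotype and day.

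**Figure D4:**
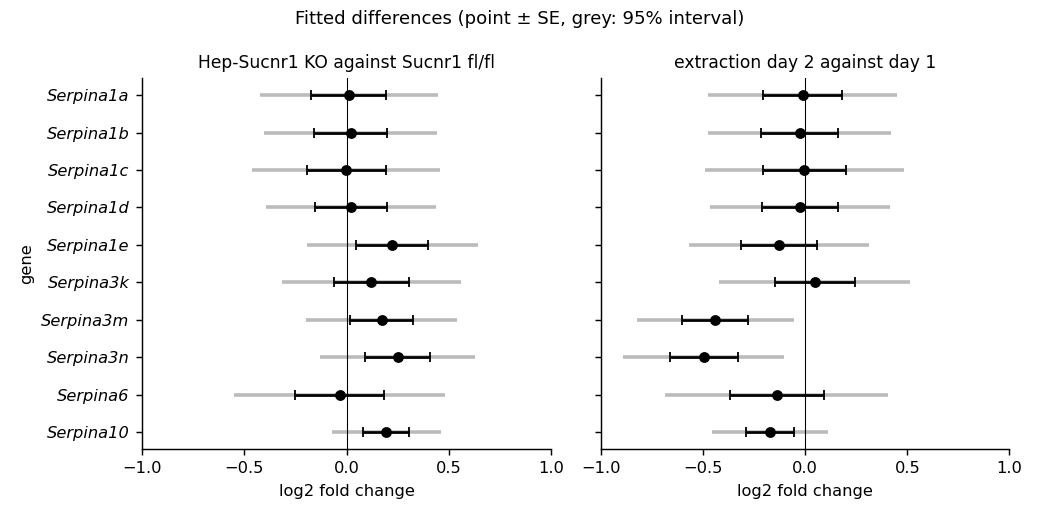
Points give the fitted log2 fold change of each member for genotype (left) and extraction day (right), with bars of 1 SE and grey lines for the 95% interval. All genotype intervals include 0, and for extraction day those of Serpina3m and Serpina3n lie below 0 before adjustment over all genes.

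Among markers of other liver cells, 0 genes passed the test for extraction day, and the summed Kupffer and stellate levels overlapped between the days. The Kupffer cell list, the resident macrophages, summed to 4.84 and 28.0 CPM on day 1 and to 23.5 to 86.8 CPM on day 2, with 6 of 6 fitted values above 0 and 3 at an unadjusted p below 0.05. The stellate cell list summed to 7.69 and 21.8 CPM on day 1 and to 3.49 to 8.01 CPM on day 2, with 5 of 5 fitted values below 0 and 3 at an unadjusted p below 0.05. In the Kupffer list 2 of 6 genes were higher on day 2 without overlap, against 8.51% of all genes. In the stellate list 1 of 5 was lower on day 2 without overlap, against 6.29% of all genes. Lrat (stellate) was at 0.42 and 0.16 CPM on day 1 and at 0.099 to 0.27 CPM on day 2, with overlap. Sinusoidal endothelial markers summed to 17.7 to 41.5 CPM, with overlap. Those of cholangiocytes, nearly all of it Sox9, summed to 122 and 125 CPM on day 1 and to 84.4 to 117 CPM on day 2, without overlap. The part of these cells in the differences of Serpina3m and Serpina3n was not tested. For genotype the fitted values of the Kupffer genes were below 0 (6 of 6, from C1qa at −0.31 to Marco at −1.18), and 0 of them passed the test. The summed Kupffer level was 28.0, 23.5 and 86.8 CPM in the control libraries and 4.84, 73.1 and 54.9 CPM in the KO libraries. The genotypes overlapped, and Hep-Sucnr1 KO replicate 3 alone lay below the controls. In bulk samples, fewer cells of a type and less RNA per cell cannot be told apart.

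No acute phase gene outside the serpins passed the test for genotype in edgeR. The list holds 26 genes, most of them for plasma proteins, with the intracellular metallothioneins Mt1 and Mt2 and the membrane reductase Steap4 beside them. It was chosen with earlier results of these data known, so its direction is not independent evidence. Of the 26 genes tested, 26 had a log2 fold change above 0, against 50.5% of all genes, from Il1rn (0.003), an interleukin-1 receptor antagonist, to Fgl1 (1.12), a liver-secreted fibrinogen-like protein, and 0 had an adjusted p below 0.05 in edgeR. At an unadjusted p below 0.05 there were 11 higher and 0 lower, against 1.91% and 1.81% of all genes, and in 10 of 26 the KO libraries all lay above the controls, against 6.54% of all genes. The median log2 fold change was 0.33, and with 1 library left out 22 to 26 of the genes were above 0. Fgl1 had 138, 214 and 187 CPM in the control libraries and 487, 340 and 350 CPM in the KO libraries, without overlap. Lbp, the lipopolysaccharide-binding protein, had 87.3, 94.0 and 116 CPM in the control and 137, 162 and 173 CPM in the KO libraries. Lbp, named after its values were seen, and Fgl1 were the 2 acute phase genes that DESeq2 called, with adjusted p values of 0.0184 and 0.0123. By comparison, the median was 0.07 over the Serpina members, and Serpina3n, the member best known as an acute phase gene, was at 0.25.

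**Figure D5:**
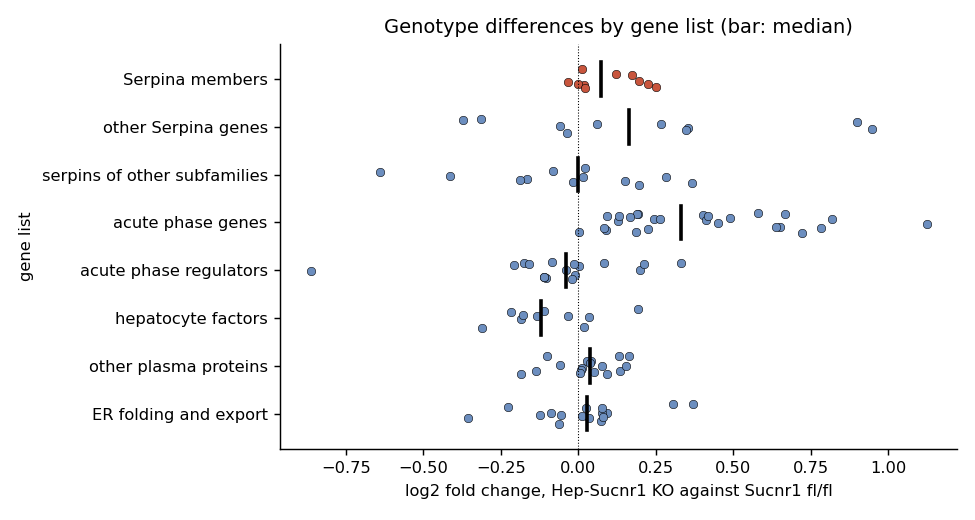
Each point is the fitted log2 fold change of 1 gene (KO against control), by gene list, with the Serpina members in red and black bars for medians. All 26 acute phase genes lie above 0, none past the test, with a median of 0.33, and the Serpina members lie between −0.03 and 0.25.

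Of the regulators of these genes, 0 passed the test. Of 17 regulators of the acute phase response, receptors, JAK and STAT proteins, C/EBP factors and glucocorticoid targets, 5 were higher and 12 lower in the KO, with a median of −0.04 and 0 past the test. Cebpd, a C/EBP factor of the acute phase, had the largest value (0.33) and Per1, a clock gene and glucocorticoid target, the smallest (−0.86). Per1 stood at 110, 65.1 and 59.9 CPM in the control and at 36.6, 31.2 and 57.0 CPM in the KO libraries. It was the 1 gene of the 17 that was lower in the KO without overlap, as were 4.04% of all genes. Of 10 hepatocyte transcription factors linked to Serpina1, 3 were higher and 7 lower, from Foxa1 (−0.31) to Hnf4a (0.19), with a median of −0.12 and 0 past the test.

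Of the other serpins, 0 passed the test for genotype. Of 16 other genes of the Serpina subfamily, 14 were in the table and 10 were tested: 6 were higher and 4 lower in the KO, from Serpina9 (−0.37) to Serpina3c (0.95), both at low levels, with a median of 0.16. Serpina3c reached 0.21 to 1.39 CPM. Serpina11, named after its values were seen, was the 1 gene of this list without overlap, against 6.54% of all genes in this direction. It stood at 18.2, 20.9 and 24.7 CPM in the control and 27.9, 26.0 and 26.8 CPM in the KO libraries. Its log2 fold change was 0.35 (SE 0.13), with an adjusted p of 0.998 in edgeR. Of 13 serpins of other subfamilies, 12 were tested, 6 higher and 6 lower, from Serpinh1 (−0.64), a collagen chaperone, to Serpinb9 (0.37), an intracellular granzyme B inhibitor, with a median of −0.002.

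Of 14 proteases, ligands and receptors that meet these serpins, 11 were tested, 6 higher and 5 lower, with 0 past the test. Prtn3, the neutrophil protease proteinase 3, had the largest value, a log2 fold change of 3.60 with an adjusted p of 0.998 in edgeR, at 0.104, 0.090 and 0.099 CPM in the control and 1.93, 0.502 and 1.34 CPM in the KO libraries. These are 3 to 4 counts a control library and 17 to 61 counts a KO library. The groups did not overlap in this 1 gene of the 11, as was the case in this direction for 6.54% of all genes. The neutrophil markers summed to at most 2.80 CPM in any library and overlapped between genotypes. Hsd11b1, which regenerates active glucocorticoids, had the smallest value (−0.18). A further list held 17 abundant secreted hepatocyte proteins outside the serpins, among them albumin and transferrin, which fall in the acute phase. Of these, 13 were higher and 4 lower, from Alb (−0.19) to Trf (0.16), with a median of 0.04. Of 16 proteins of folding, degradation and export in the endoplasmic reticulum, which handle alpha-1-antitrypsin on its way out of the cell, 10 were higher and 6 lower, from Sec24a (−0.36) to Hsp90b1 (0.37), with a median of 0.03 and 0 past the test in either list.

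The genes whose log2 CPM over the 6 libraries was most like that of a member, among 7056 genes with a mean of at least 10 CPM, are given as a description. For Serpina3n they were Slc23a1 (r = 0.979), Tfrc (0.966) and Tmem238 (0.961). Slc23a1, a vitamin C transporter, had 37.6, 24.7 and 29.8 CPM in the control and 39.2, 33.3 and 33.2 CPM in the KO libraries. For Serpina10 they were C4b (0.975), Pgls (0.962) and Alg5 (0.959), and for Serpina6 Stim2 (0.988), Nrp1 (0.987) and Fbxo8 (0.982). C4b, a complement component, ran from 1081 CPM in Sucnr1 fl/fl replicate 2 to 1469 CPM in Hep-Sucnr1 KO replicate 3, the libraries in which Serpina10 was also lowest and highest. For the sum of the Serpina1 rows they were Park7 (0.993), Cst3 (0.987) and Snapc1 (0.987). With 6 libraries and this many genes, the highest values of r are high whichever gene is matched.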

How the data were processed

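Gene expression was measured by stranded mRNA sequencing in 6 libraries. Per the labels and methods, the authors trimmed reads (Trim Galore 0.6.7), aligned them to GRCm38 (STAR 2.7.10a), counted read pairs per gene with featureCounts and deposited raw counts. The counts are not normalized. How read pairs matching several genes were counted is not given in the sources used here. Genes with identical transcripts were compared for this and did not settle it.

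Genes with a mean DESeq2-normalized count above 5 were kept (15105). Genotype and extraction day were tested with edgeR 4.0.16 (R 4.3.3; TMM, quasi-likelihood, both factors, all libraries, Benjamini-Hochberg over all genes, threshold 0.05), with DESeq2 1.42.0 as an alternative. SE is the fold change over the root of F. Across genes the biological coefficient of variation was 0.206. CPM are TMM-scaled, log2 CPM used a prior count of 2. Transcripts and positions came from GENCODE vM21, symbols matched 25096 of 25184 identifiers, and coding sequences were aligned with mafft 7.526.

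The members and lists were chosen with earlier results of these data known. Named were the members, Sucnr1, the largest change in each direction of each list and the 3 genes most like a member; others are marked. The libraries are separate mice per the study.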

Additional observations from a re-analysis of the deposited data

How the results depend on the processing

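Under every alternative tried, 0 members passed an adjusted p of 0.05 for genotype or for extraction day. The members whose log2 fold change in the report lay near 0 changed sign under some settings, and the cause was not tested. So did some with larger values: Serpina3k for genotype (0.12 in the report), and Serpina1e (−0.13) and Serpina6 (−0.14) for extraction day. For genotype, Serpina1a was at −0.0098 and Serpina1b at −0.0010 with DESeq2 and likewise with DESeq2's size factors in edgeR. With library size alone the values were −0.014 for Serpina1a, −0.0050 for Serpina1b and −0.0025 for Serpina1d, and with no filter on low counts Serpina1a was at −0.0080. In the day 2 libraries alone Serpina1c was at 0.074. With the index series of the libraries as a further term, which sets Sucnr1 fl/fl replicates 1 and 2 apart from the other libraries and so overlaps with genotype, the values were −0.13 for Serpina1a, −0.15 for Serpina1b, −0.16 for Serpina1d, −0.064 for Serpina3k and 0.076 for Serpina6, and Serpina3k was at −0.030 for extraction day. With each library left out in turn, the genotype value ran from −0.097 to 0.090 for Serpina1a, −0.084 to 0.12 for Serpina1b, −0.13 to 0.094 for Serpina1c, −0.083 to 0.12 for Serpina1d and −0.22 to 0.19 for Serpina6. The extraction day value then ran from −0.15 to 0.085 for Serpina1a, −0.11 to 0.018 for Serpina1b, −0.17 to 0.12 for Serpina1c, −0.10 to 0.013 for Serpina1d, −0.30 to 0.0054 for Serpina1e, −0.030 to 0.10 for Serpina3k and −0.36 to 0.052 for Serpina6. The other members, Serpina3m, Serpina3n and Serpina10, kept their direction for both factors under every alternative, and Serpina1e did so for genotype (0.10 to 0.26).

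Over all genes, DESeq2 called 7 for genotype and 225 for extraction day, and edgeR with no filter called 122 for extraction day, where the reported counts were 0. With each library left out in turn, 0 to 29 genes were called for extraction day, the highest without Sucnr1 fl/fl replicate 2. No alternative that shifts all genes alike, by library size or size factors, brought a member past the threshold. The ratio of Serpina1c to Serpina1b was 1.53 from counts alone, and the use of principal transcript lengths was chosen after seeing the data. No paired analysis was done, since the labels give no pairs of mice. Replicate number 3 occurs in both genotypes, but on different extraction days. With 3 mice a genotype, the 95% genotype intervals of the members reached 0.44 to 0.64 on the log2 scale at their upper end. Their lower ends lay between −0.55 (Serpina6) and −0.07 (Serpina10). Differences up to these sizes, in either direction, are compatible with the data.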
